A study of Mus musculus with 2 samples.

Results

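The genes of the proteasome and of the main chaperone families were described in CH (Circulating Healing) cells, named PlCH in the labels, which are small nucleated cells sorted from mouse blood. Members were chosen by gene symbol alone: the numbered Psma, Psmb, Psmc and Psmd genes without the immunoproteasome subunits Psmb8, Psmb9 and Psmb10, the numbered Hspa, Hspb and Cct genes, and Tcp1, Hspd1, Hspe1, Hsph1, Hsp90aa1, Hsp90ab1, Hsp90b1, Hsf1, Hsf2 and Serpinh1. In the array annotation 75 genes fitted this rule and 73 of them, of 18193 genes in all, had a probe set naming them alone. Hsf1, the main transcription factor of the heat shock response, and Hsp90ab1, the constitutive cytosolic Hsp90, had none and were not analysed here. The 73 members comprised 36 proteasome genes and 37 chaperone or heat shock genes and were read by 169 probe sets.

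RNA came from 2 pools of healthy C57bl/6 mice, male and female, without any transgene or treatment, and each pool was hybridized to 1 Affymetrix whole-genome mouse array. The labels give 15 adult mice of 7 months for each pool, whereas the general methods of the study describe smaller pools of young mice. Cells were sorted as viable, DNA-containing events of small size without CD45 and without the markers of mature blood lineages. There was 1 group, so no comparison between conditions was possible, and the question addressed was which members were detected, at which level and how evenly in both pools.

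The proteasome is the protease that degrades proteins tagged with ubiquitin. Its 20S core is a barrel of alpha and beta rings in which Psmb5, Psmb6 and Psmb7 carry the catalytic sites, and its 19S cap, a base with Psmc ATPases and a set of Psmd subunits, binds, unfolds and feeds in the substrate. Chaperones act before that step: Hsp70 proteins bind exposed hydrophobic stretches of unfolded chains, Hsp60 and the CCT ring enclose a chain in a chamber, Hsp90 acts late on signalling proteins, and small heat shock proteins hold aggregating proteins in solution. Many of these genes are used by every nucleated cell, while some paralogs are known mainly from testis, muscle or thymus.

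Signals were log2 values for probe sets, the groups of short oligonucleotides by which the array reads a transcript. Genes counted as above the limit if any probe set exceeded 5 (log2) on both arrays, and the probe set with the highest mean gave the level. Because oligonucleotides bind with different affinity, levels of different genes do not order their transcripts by abundance, and percentiles among all genes are given as a description. In sorted bulk cells, fewer cells carrying a transcript and less RNA in each cell cannot be told apart. Pearson's r between the arrays was 0.997 across all probe sets, which are not independent replicates, with an SD of 0.20 for the difference. As a measure of background, 13 of 77 chemosensory receptor genes (16.9%) also exceeded 5 on both arrays, 11 of them by limma, and the 95th percentile of their probe sets was 6.03. The highest of them was Vmn1r44 at 6.92. Background genes can thus pass the test against 5, and p-values measure only the spread between the 2 arrays.

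The sort was checked against markers. Ptprc, which encodes CD45, lay at the limit, with 4.95 on array 1 and 5.24 on array 2. Of 6 leukocyte markers matched, 3 were above 5, among them the macrophage lysozyme gene Lyz2 at 9.58, while Itgam was at 3.85. Of 4 erythroid markers, Klf1 alone was above 5, at 5.90, and the 5 platelet markers lay between 5.98 for Pf4 and 7.18 for Itga2b. Klf1 and Pf4 were under the 95th percentile of the chemosensory receptor probe sets. Gp1bb at 6.34 and Gp9 at 6.41 were under the highest chemosensory receptor gene. All 7 mesenchymal markers were above 5, with a median of 9.92 and the collagen gene Col1a2 at 14.27. The lowest of them were the surface markers Nt5e at 6.55, Eng at 7.32 and Thy1 at 7.47. Nt5e was under the highest chemosensory receptor gene. All 5 pluripotency markers were above 5 as well, at 6.02 to 9.49, beside 71.2% of all genes above 5. Dppa3, the lowest, was under the 95th percentile of the chemosensory receptor probe sets, 6.03. Zfp42 at 6.59 was under the highest chemosensory receptor gene. Which of the sorted cells contributed the RNA of the members was not tested.

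Of the 73 members, 67 were above 5 on both arrays (91.8%), against 71.2% of all genes. The same number, 67, exceeded 5 by limma at an adjusted p under 0.05, against 69.1% of all genes. By probe set, 141 of the 169 of the members were above 5 (83.4%), against 64.8% of all probe sets that name 1 gene. The median level of the members was 11.74, whereas that of all genes was 6.84 and the 90th percentile of all genes was 10.65. Above this percentile were 50 of the 73 members, 30 of 36 from the proteasome and 20 of 37 from the chaperones. Among the 1000 genes of highest level, which are 5.497% of all genes, were 44 members, 60.3% of the members. No other cell type was measured on these arrays, so whether these levels are particular to CH cells was not tested.

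In the proteasome, every structural subunit measured was above the limit. All 31 subunits of the rings and of the cap were above 5 and above 8 on both arrays, beside 6738 of 18193 genes above 8, and 30 of them were over the 90th and 24 over the 95th percentile of all genes. Their median was 11.86, and the levels had an SD of 0.60 over these genes, beside 1.35 over the 6862 genes with a level over 8 and 2.56 over all genes. These spreads describe signals and include differences in probe affinity.

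**Figure D1:**
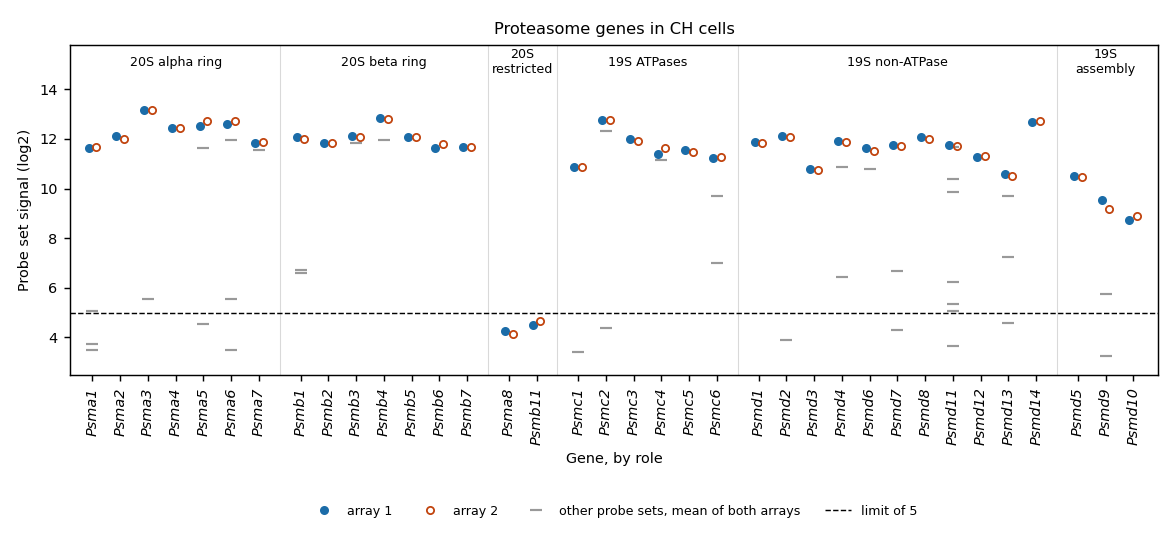
Signal (log2) of the 36 proteasome genes on array 1 (filled) and array 2 (open), grouped by role, for the probe set with the highest mean. Grey dashes are the means of the other probe sets of a gene and the dashed line is the limit of 5; the 31 structural subunits lay between 10.57 and 13.17, and Psma8 and Psmb11 lay below the limit.

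The alpha ring forms the gate through which substrates enter the core. Its 7 constitutive subunits had a median of 12.45, from 11.67 for Psma1 to 13.17 for Psma3. Psma3 was at 13.16 on array 1 and 13.18 on array 2, and was the proteasome gene over the 99th percentile of all genes. The 7 beta subunits had a median of 12.05, from 11.67 for Psmb7 to 12.84 for Psmb4.

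Within the beta ring, the 3 catalytic subunits had similar signals on both arrays. Psmb5, the subunit with chymotrypsin-like activity, was at 12.09 on array 1 and 12.08 on array 2. Psmb6, with caspase-like activity, was at 11.64 and 11.80. Psmb7, with trypsin-like activity, was at 11.66 and 11.68. Each of these genes was read by 1 probe set, and all were over the 95th percentile of all genes.

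The members of the core known from particular tissues were not above the limit. Psma8, the alpha subunit of the spermatocyte proteasome, was at 4.26 on array 1 and 4.14 on array 2, below 5 by limma with an adjusted p of 1.8e-04. Psmb11, the catalytic subunit of cortical thymic epithelium, was at 4.50 and 4.67, with an adjusted p of 0.0042. Psmb11 follows Psmb5 directly on chromosome 14 in RefSeq gene order, and these neighbours lay on opposite sides of the limit on both arrays. Of 8 markers of testis germ cells, 3 were above 5 and the list had a median of 4.55. Of 4 markers listed for thymic epithelium, which are not all particular to its cortex, 3 were above 5, beside 71.2% of all genes. Ccl25 was at 7.67, Prss16 at 6.54 and Krt5 at 5.63, and Foxn1, a factor of this epithelium, was at 4.90. Krt5 lay under the 95th percentile of the chemosensory receptor probe sets, 6.03, and Prss16 under the highest chemosensory receptor gene.

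In the 19S cap, the 6 ATPases that unfold substrates had a median of 11.51, from 10.89 for Psmc1 to 12.77 for Psmc2. The 11 subunits without ATPase activity had a median of 11.74. Among these were Psmd14, the deubiquitinase that removes ubiquitin chains, at 12.69 ± 0.02 (SD, n = 2 arrays), and the ubiquitin receptor Psmd4 at 11.90 ± 0.02. Psmd2, a scaffold of the base, was at 12.09 ± 0.02 and Psmd1, a further scaffold, at 11.86 ± 0.03. The lowest of the 11 was Psmd13 at 10.57, just under the 90th percentile of all genes. Psmd5, Psmd9 and Psmd10 are not subunits of the finished particle but assembly chaperones of the base. Their levels were 10.49, 9.35 and 8.81, and none of them was over the 90th percentile.

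Windows of 250 bases before a gene start were read from RefSeq (GRCm38.p6) for 60 of the 73 members, 29 proteasome and 31 chaperone genes, with 68 windows. They were searched on both strands for motifs of factors known to act on such genes. The motif CCGGAAG, a site of ETS family factors, was in the windows of 9 of 29 proteasome and 6 of 31 chaperone genes, together 25% of the members with a window. It was in 7.83% of all 27025 genes in the table, in 11.8% of those on the arrays and in 20.1% of the genes over the 90th percentile there, which include members. Among the 6 chaperone genes, Hspd1 and Hspe1 share a promoter region, and the same matches were counted for each of them. The sites in the proteasome genes lay 11 to 132 bases before the start. They are shown, except those of Psmd11 and Psmd12 near the end of the window, to let the bases around the motif be compared, each turned so that the motif in capitals reads the same way:
Psma6: agagccaccacCCGGAAGcccgcggaccg
Psmc1: aatcgccaccgCCGGAAGtgcatccacca
Psmc2: cgagccccatcCCGGAAGtgctcactggt
Psmc2: tctcttccccaCCGGAAGtagctccgcgc
Psmc6: aggcgggccagCCGGAAGgggcggagcca
Psmd2: tgtcctccagaCCGGAAGcgccctgcgga
Psmd4: ttacagctgttCCGGAAGctgctgcgaag
Psmd6: cagagacgcgaCCGGAAGtcagactggcg
These stretches lie at chr12:55398682-55398710 on the plus strand for Psma6, chr12:100110163-100110191 on the minus strand for Psmc1, chr5:21785180-21785208 on the minus strand for Psmc2, chr5:21786712-21786740 on the minus strand for Psmc2, chr14:45329713-45329741 on the plus strand for Psmc6, chr16:20651615-20651643 on the minus strand for Psmd2, chr3:95042722-95042750 on the minus strand for Psmd4 and chr14:14120973-14121001 on the minus strand for Psmd6. No stretch had all the same bases beside the motif as another, but single bases were shared. The base after the motif was t for Psmc1, for both stretches of Psmc2 and for Psmd6. It was c for Psma6, Psmd2 and Psmd4 and g for Psmc6. The core of the antioxidant response element (TGAC and GC with 3 bases between), bound by Nfe2l1 and Nfe2l2, was in 5 of the 29 proteasome genes with a window, among them Psmb5 and Psmb6. Over all members with a window its share was 15%, beside 11.5% of all genes and 14.9% of genes over the 90th percentile. A CCAAT box was in 43.3% of these members, 37.5% of all genes and 40.6% of genes over the 90th percentile. The letters TATAAA were in 8.33% of these members, 14.3% of all genes and 8.30% of genes over the 90th percentile. The cAMP response element (TGACG followed by TCA) was in no member window, in 1.77% of all genes and in 3.12% of genes over the 90th percentile. With so rare a motif and 60 members, few matches or none can occur. A match of letters is a description of the sequence and says nothing of binding.

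Among the chaperones, the CCT ring, Hsp60 with Hsp10 and the Hsp90 genes were over the 95th percentile of all genes, whereas the Hsp70 and small heat shock protein genes were spread over the range. Of the 37 genes, 33 were above 5 on both arrays (89.2%, beside 71.2% of all genes). Above 8 were 26 of them, beside 6738 of 18193 genes. The median of the 37 was 11.20 and their interquartile range 6.11, beside 0.81 over all 36 proteasome genes.

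**Figure D2:**
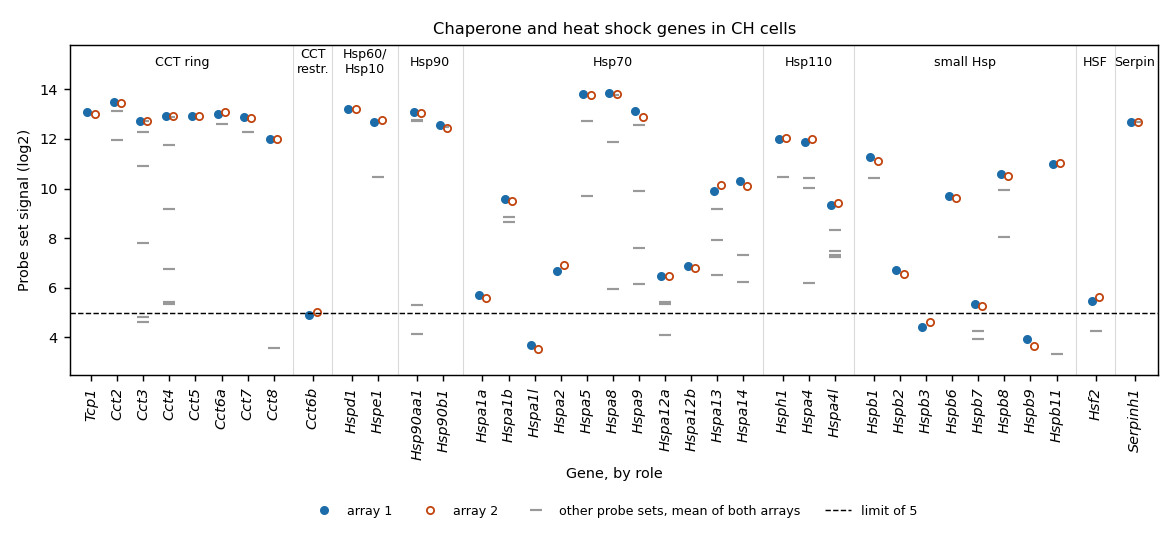
Signal (log2) of the 37 chaperone and heat shock genes on array 1 (filled) and array 2 (open), grouped by family, for the probe set with the highest mean. Grey dashes are the means of the other probe sets of a gene and the dashed line is the limit of 5; the 8 genes of the CCT ring lay between 11.99 and 13.46, while the Hsp70 genes ran from 3.62 to 13.82.

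The CCT ring folds actin and tubulin. Its 8 constitutive subunits, Tcp1, Cct2, Cct3, Cct4, Cct5, Cct6a, Cct7 and Cct8, had a median of 12.92 and were all over the 95th percentile of all genes. Cct2 was at 13.46 ± 0.03 (SD, n = 2 arrays) and Tcp1 at 13.05 ± 0.05. Cct6b, the testis paralog of Cct6a, was at 4.90 on array 1 and 5.01 on array 2, and its mean could not be told from 5 by limma (adjusted p = 0.60). Cct6a was at 13.02 and 13.07.

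Hsp60 and its co-chaperonin Hsp10 form the folding chamber of mitochondria. Hspd1, which encodes Hsp60, was at 13.22 on array 1 and 13.19 on array 2. Hspe1, which encodes Hsp10, was at 12.67 and 12.77, and its other probe set at 10.45. Both genes were over the 95th percentile of all genes on the arrays, Hspe1 by its higher probe set alone. The other probe set of Hspe1 was under the 90th percentile of all genes, 10.65. They are neighbours on chromosome 1 and their annotated spans overlap by 96 bases, so that they share a promoter region. In this region lay the only matches, among the members with a window, to a heat shock element, searched as GAA, TTC and GAA with 2 bases between, which 0.51% of all genes and 0.86% of genes over the 90th percentile had. The stretch holds 2 overlapping matches, marked in capitals, at chr1:55088053-55088082, printed on the plus strand:
Hspe1 and Hspd1: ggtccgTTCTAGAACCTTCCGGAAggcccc

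Hsp90 proteins act on kinases and receptors. Hsp90aa1, the heat-inducible form of the cytosol, was at 13.08 on array 1 and 13.03 on array 2. Hsp90b1, the form of the endoplasmic reticulum (ER), was at 12.57 and 12.46. Hspa5, known as BiP, is the Hsp70 of the ER and was at 13.80 and 13.77, in the top 100 genes together with Cct2 and Hspa8. Serpinh1, the collagen chaperone Hsp47 of the same compartment, was at 12.66 and 12.69, beside the collagen levels given above. The ER stress response element, CCAAT and CCACG with 9 bases between, is bound by the factors of the unfolded protein response. It was found in 2 members, Hspa5 and Hsp90b1 (3.33% of those with a window), in 0.13% of all genes and in 0.33% of genes over the 90th percentile. Their 250 bases before the start are shown with the matches in capitals, 1 for Hspa5 at chr2:34771840-34772089 on the plus strand and 2 for Hsp90b1, in opposite directions, at chr10:86705445-86705694 on the minus strand:
Hspa5: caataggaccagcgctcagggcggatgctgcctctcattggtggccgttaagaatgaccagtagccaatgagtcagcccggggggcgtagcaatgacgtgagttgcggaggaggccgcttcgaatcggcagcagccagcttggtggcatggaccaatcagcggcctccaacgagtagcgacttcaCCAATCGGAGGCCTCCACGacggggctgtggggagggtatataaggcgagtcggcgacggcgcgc
Hsp90b1: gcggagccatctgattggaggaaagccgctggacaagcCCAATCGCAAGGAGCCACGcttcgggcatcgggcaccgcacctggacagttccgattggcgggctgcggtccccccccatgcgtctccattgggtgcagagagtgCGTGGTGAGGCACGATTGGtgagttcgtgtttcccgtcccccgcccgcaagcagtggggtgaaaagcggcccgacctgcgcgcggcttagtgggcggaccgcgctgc

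The Hsp70 family covered nearly the whole range of the arrays. Of its 11 genes, 10 were above 5 (90.9%, beside 71.2% of all genes). Over the 90th percentile of all genes were 3: Hspa8, Hspa5 and Hspa9. Hspa8, the constitutive Hsc70 of the cytosol, was at 13.85 on array 1 and 13.80 on array 2, and Hspa9, the mitochondrial mortalin, at 13.11 and 12.89. The probe set for Hspa8 is of a type that may read related transcripts, and its other probe sets were at 13.77, 11.88 and 5.96. Hspa14, which acts at the ribosome, was at 10.21 and Hspa13, a microsomal form, at 10.03. The distant relatives Hspa12a and Hspa12b were at 6.48 and 6.84, near the median of all genes and under the highest chemosensory receptor gene.

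**Figure D3:**
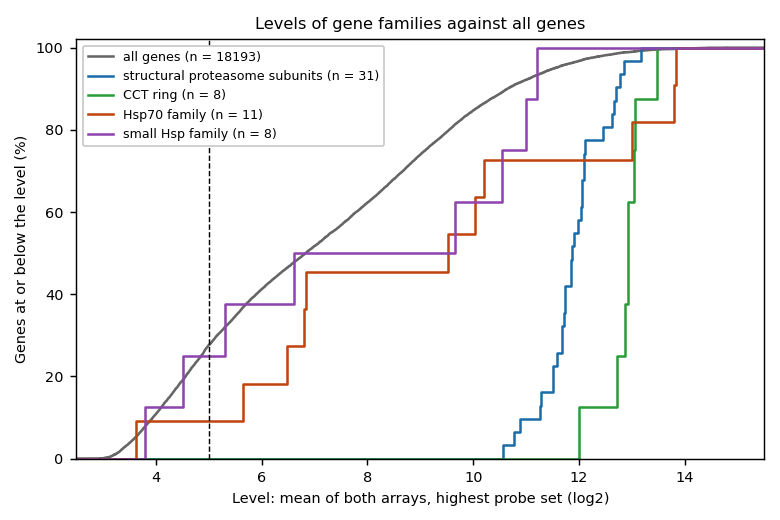
Share of genes (%) at or below each level (log2, mean of both arrays) for all 18193 genes, the 31 structural proteasome subunits, the 8 genes of the CCT ring, the 11 Hsp70 genes and the 8 small heat shock protein genes, with the limit of 5 dashed. The subunits and the CCT ring rose steeply between 10.57 and 13.46, while the Hsp70 and small heat shock protein genes spread from below 5 upward.

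Hspa1b, Hspa1a and Hspa1l lie side by side on chromosome 17. Hspa1b, a strongly heat-inducible gene, was at 9.57 on array 1 and 9.48 on array 2, and its other probe sets were at 8.86 and 8.65. Hspa1a, known to be equally heat-inducible, was at 5.70 and 5.60 on its 1 probe set, under the 95th percentile of the chemosensory receptor probe sets. Hspa1l, the form of spermatids, was at 3.70 and 3.54, below 5 by limma with an adjusted p of 2.3e-05. Hspa2, a form best known from spermatocytes, was at 6.68 and 6.93, with a mean of 6.81 under the highest chemosensory receptor gene.

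The products of Hspa1a and Hspa1b are almost the same, and probe sets named for either gene may read both, so the split of the signal between them is uncertain. Their windows of 250 bases before the start differed at 3 positions and were 98.8% identical. They are shown because the signals of the genes lay far apart while these sequences did not. The bases that differ are in capitals, for Hspa1b at chr17:34959239-34959488 and for Hspa1a at chr17:34972157-34972406, both on the minus strand:
Hspa1b: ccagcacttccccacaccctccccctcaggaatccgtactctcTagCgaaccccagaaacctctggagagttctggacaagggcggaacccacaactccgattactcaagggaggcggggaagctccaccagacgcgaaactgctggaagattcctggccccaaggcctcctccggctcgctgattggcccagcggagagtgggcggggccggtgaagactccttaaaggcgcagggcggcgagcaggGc
Hspa1a: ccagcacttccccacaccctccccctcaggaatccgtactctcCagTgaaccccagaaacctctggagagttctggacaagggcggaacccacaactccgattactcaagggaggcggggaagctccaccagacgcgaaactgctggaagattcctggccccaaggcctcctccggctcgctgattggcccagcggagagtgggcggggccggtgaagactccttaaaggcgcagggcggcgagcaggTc
Counted from 1 at the 5′ end, with the base of Hspa1b first, the differences were T44C, C47T and G249T. Neither window held the heat shock element in the strict form searched, which says only that these letters are not in it.

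The Hsp110 genes encode exchange factors of Hsp70. Hsph1, the heat-inducible form, was at 11.99 on array 1 and 12.03 on array 2. Hspa4 was at 11.93 and Hspa4l, which is known from testis, at 9.37.

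Of the 8 small heat shock protein genes, 6 were above 5 (75%), near the 71.2% of all genes. The median of the 8 was 8.14. Hspb1, the widely used and heat-inducible Hsp27, was at 11.26 on array 1 and 11.13 on array 2. Hspb8, which works with the co-chaperone Bag3 in autophagy, was at 10.55 ± 0.06 (SD, n = 2 arrays). Hspb11, now known as a part of the transport machinery of cilia, was at 11.01 ± 0.03, but its other probe set was at 3.31.

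The forms known from muscle were spread over the range. Hspb6 was at 9.70 on array 1 and 9.60 on array 2. Hspb2 was at 6.70 and 6.54, under the highest chemosensory receptor gene, and Hspb7 at 5.36 and 5.25. The other probe sets of Hspb7 were at 4.27 and 3.95 (means of both arrays), under the limit. Hspb3 was at 4.42 and 4.60, below 5 by limma with an adjusted p of 0.0022. Of 10 markers of striated muscle, 4 were above 5, beside 71.2% of all genes. Acta1 was at 8.22 and the heart myosin gene Myh6 at 4.03, and the median of the 10 markers was 4.81. Summed on the linear scale, the signal of these markers had a log2 of 9.58 on array 1 and 9.68 on array 2. Hspb9, the form of testis, was at 3.94 and 3.66, below 5 with an adjusted p of 8.1e-05. Hsf2, a heat shock factor active in development, was at 5.45 and 5.62 (adjusted p = 0.0014 from limma), under the 95th percentile of the chemosensory receptor probe sets like Hspa1a and Hspb7. The other probe set of Hsf2 was at 4.27 on both arrays, below 5 by limma with an adjusted p of 2.0e-04.

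The 6 members not above 5 on both arrays were thus Psma8, Psmb11, Cct6b, Hspa1l, Hspb3 and Hspb9, of which 5 were below 5 by limma and Cct6b was not told from it. All 6 are best known from testis, thymus or muscle, and each was read by 1 probe set.

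The level of a gene depended on the probe set that stood for it. Of the 44 members with several probe sets, 17 (38.6%) had some above and some not above 5, against 42.0% of 9010 such genes in all. Among genes with a level over 10, this was so for 13 of 38 members (34.2%) and for 32.6% of 1980 genes. From the highest to the lowest probe set the median distance was 4.17 over members with several and 2.06 over all such genes, and 5.45 and 4.70 among those with a level over 10. The distance was largest for Psma6, with 12.62 and 12.72 on its highest probe set and 3.34 and 3.67 on its lowest. For Hsp90aa1, 3 of the 5 probe sets were at 12.74 to 13.05 and the lowest at 4.08 and 4.18. Cct8 had 11.99 and 12.00 on the highest and 3.66 and 3.47 on the lowest of its 2 probe sets. Psmc2 had 12.76 and 12.78 against 4.44 and 4.33, and Psmd2 had 12.10 and 12.08 against 3.95 and 3.80. What each low probe set reads was not tested. By type of probe set, all 38 of the members' sets ending in _a_at, which read several transcripts of the same gene, were above 5, against 81.4% of all, and 74 of the 99 ending in plain _at were (74.7%, against 60.8% of all).

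The members differed little between the pools. Array 1 minus array 2 had a median of 0.03 over the members and an SD of 0.11, against a median of 0.00 and an SD of 0.19 over all genes. Differences depended on the level, so members and all genes were also set side by side above a level of 8. There the SD was 0.10 over 60 members and 0.12 over 6862 genes. The absolute difference had a median of 0.05 over these members and of 0.07 over these genes. The median level was still 11.98 for these members and 9.64 for these genes. The sets were thus not matched by level, and whether members differ less at equal level was not tested.

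**Figure D4:**
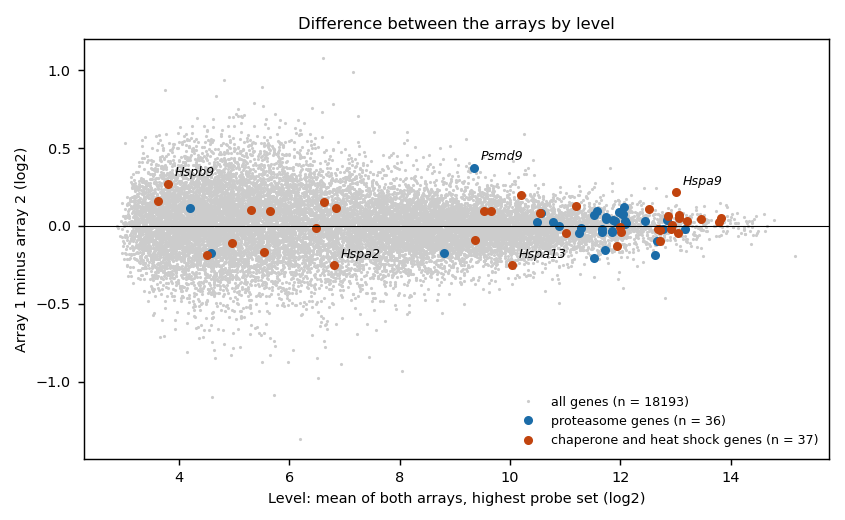
Array 1 minus array 2 (log2) against the mean level of both arrays (log2) for 18193 genes (grey), the 36 proteasome genes (blue) and the 37 chaperone and heat shock genes (orange), with the 5 members of largest difference named. All members lay between -0.25 and 0.37, and differences of all genes spread more widely at low levels.

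The largest difference was that of Psmd9, with 9.53 on array 1 and 9.16 on array 2. Hspb9 followed with a difference of 0.27 below the limit, where signals are mostly background. Hspa13, with 9.91 and 10.16, and Hspa2 both differed by -0.25, and Hspa9 by 0.21. Of the 11 cap subunits without ATPase activity, 9 were higher on array 1, but by at most 0.10. A single probe set of Hspb8 differed more, with 8.48 on array 1 and 7.58 on array 2, while the probe set giving the level of this gene differed by 0.08. With 1 array for each pool, a difference between pools has no replicate and was not tested.

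Genes of the same pathways that the rule leaves out were read from lists of 96 genes, of which 86 had a probe set of their own. Above 5 on both arrays and by limma were 83 of the 86 (96.5%), beside 71.2% and 69.1% of all genes. Over the 90th percentile were 42, and the median of the 86 was 10.58. The share of 71.2% also stands beside the counts above 5 for the single lists below. The 3 not above 5 were Unc45b, a myosin chaperone of muscle, at 4.37, and the heat shock factors Hsf4 at 4.18 and Hsf5 at 4.37.

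**Figure D5:**
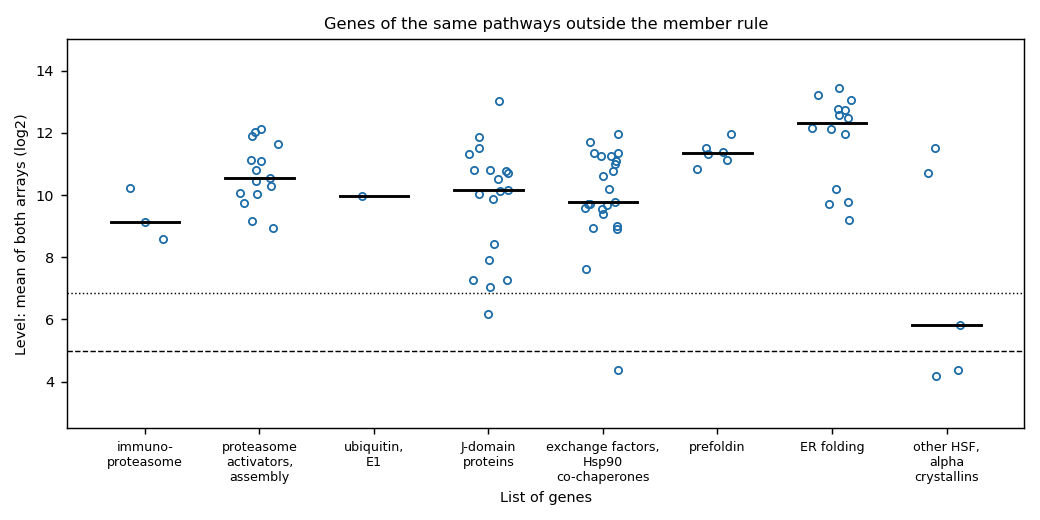
Level (log2, mean of both arrays) of 86 genes of the proteasome and folding pathways outside the member rule, by list, with the list median as a bar, the limit of 5 dashed and the median of all genes, 6.84, dotted. The medians ran from 5.82 for other heat shock factors and alpha crystallins to 12.32 for ER folding.

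The immunoproteasome subunits replace the catalytic subunits in immune cells and under interferon. Psmb8 was at 9.14, Psmb9 at 8.60 and Psmb10 at 10.22, all above 5 and none over the 90th percentile of all genes. They share this array with Psmb5, Psmb6 and Psmb7, but since probe affinities differ, no ratio of the forms was taken.

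All 15 matched genes of activators, assembly and associated proteins were above 5, with a median of 10.56. The assembly factor Pomp was at 12.14 and Sem1, a small subunit of the cap, at 11.90. Nfe2l2, which drives antioxidant and proteasome genes, was at 12.03 and Nfe2l1, which restores proteasome genes when the particle is inhibited, at 9.73. Lowest were the inhibitor Psmf1 at 8.93 and the activator Psme3 at 9.17. From the list of ubiquitin and its activating enzymes, Uba6 at 9.97 was the gene matched.

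J-domain proteins hand substrates to Hsp70. All 19 were above 5, with a median of 10.17, led by Dnaja2 at 13.02, Dnaja1 at 11.86 and Dnajb6 at 11.52, while Dnaja4 at 6.19, Dnajb5 at 7.04 and Dnajb2 at 7.25 were lowest. Of 23 exchange factors and Hsp90 co-chaperones, 22 were above 5, with St13 at 11.98, Cdc37, which brings kinases to Hsp90, at 11.72, and Chordc1 at 11.36. All 6 genes of prefoldin, which delivers chains to the CCT ring, were over the 90th percentile, at 10.84 to 11.97.

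Genes of ER folding had the highest list median, 12.32, with 14 of 14 above 5 and 10 over the 90th percentile. The disulfide isomerases Pdia3 and P4hb were at 13.20 and 13.05. Factors of the unfolded protein response were at 13.44 for Atf4, 12.16 for Xbp1, 11.96 for Ddit3 and 9.20 for Atf6. Levels of mRNA do not show whether these factors were active. Hsbp1, a binder of heat shock factors, was at 11.51. The crystallin gene Cryab, the neighbour of Hspb2 on chromosome 9, was at 10.71, beside 6.62 for Hspb2. The lens crystallin Cryaa was at 5.82, and of 5 lens markers 2 were above 5, beside 71.2% of all genes.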

How the data were processed

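Total RNA of CH cells from 2 pools of mice was hybridized to whole-genome Affymetrix mouse arrays, 1 array for each pool, which the submitters call biological replicates. Values were used as the authors deposited them, in log2 units. In the methods, RMA and quantile normalisation were run jointly with arrays of 5 public series. Whether that run made the deposited values, and the versions of its tools, are not given in the sources used here. A joint normalisation would set the scale partly by arrays not analysed here.

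Of 45101 rows, 64 control probe sets were removed. Of 45037 probe sets, 34945 named 1 gene in the platform annotation, 932 named several and 9160 were unlisted. Probe sets naming 1 gene were used, and symbols were checked through Entrez identifiers against GRCm38.p6 (34741 matched, 0 changed). The study's methods dropped genes that stayed under 5 (log2) in all of their joined arrays. The value 5 was taken over here, but the rule that any probe set of a gene must exceed it on both CH cell arrays is stricter and was chosen here. Means were tested against 5 with limma 3.58.1 (R 4.3.3; intercept only, empirical Bayes, two-sided, Benjamini-Hochberg over 45037 probe sets, adjusted p under 0.05). The steps were tested on simulated data. Depth does not apply to arrays, and the number of arrays limits precision.

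Promoter windows came from RefSeq (GRCm38.p6), and the array values name no build. Python 3.11.15 with numpy 2.4.6, pandas 2.3.3 and matplotlib 3.10.9 was used. The members and lists were chosen with earlier results of these data known. Both arrays' values were given for catalytic, tissue-restricted, heat-inducible, ER and mitochondrial members, those not above 5, and the 5 with the largest difference between arrays or between probe sets; of each pathway list up to 3 genes of highest and lowest level were named, with some others chosen after their values were seen. Counts were repeated with other limits, limma, quantile normalization, other summaries of probe sets and each array left out.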

Additional observations from a re-analysis of the deposited data

How the results depend on the processing

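The lowest probe set of a gene changed the counts most among the settings tried. Over all 73 members the count was 67 as reported, 64 with a limit of 6 or with the 95th percentile over chemosensory probe sets as the limit, 60 with a limit of 8, and 67 with limma, after quantile normalization or without probe sets ending in _s_at or _x_at. It was 64 when probe sets were summarised by their median and 50 with the lowest probe set. Counts or shares over all genes were given above for the limits of 5 and 8 and for limma. For the other settings none was given, so those counts cannot be set beside all genes. Leaving out each array gave 67 to 68, the gain without array 1 being Cct6b. Proteasome genes numbered 34 under these settings, except 33 with the median over probe sets, where Psma1 was lost, and 24 with the lowest probe set. Chaperone genes ranged from 26 to 34 and the other pathway genes from 65 to 83. The median difference between arrays was 0.03 as reported and 0.01 to 0.04 otherwise. No paired analysis was possible because both arrays belong to the same group. Signals near 5 overlap those of background genes, which limits what can be said of Hspa1a, Hspb7 and Hsf2, and 2 arrays give a weak estimate of spread for any single gene.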
